A study of Arabidopsis thaliana with 2 samples.

Results

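The genes described here are the protein-coding genes of the chloroplast genome of Arabidopsis thaliana. They were chosen by identifier, as every gene in either deposited table whose identifier starts with ATCG, and number 87 of 23147 genes. Their transcripts were measured by RNA sequencing in rosettes, the whole leaf whorl of the young plant, in 2 libraries. The PBL19 C3A library came from 28-day-old plants of a pbl19 null mutant that carries a PBL19 transgene with cysteine 3 changed to alanine, tagged with GFP and HA and placed behind the PBL19 promoter. The WT library came from Col-0 plants of the same age, with no transgene. Both lines are in the Col-0 accession and both were left untreated. PBL19 belongs to the receptor-like cytoplasmic kinases, which pass on signals from immune receptors. Between the libraries the null allele, the amino acid change, the tags and the level of PBL19 all differ at once, and their effects cannot be told apart. The number of plants per library is not given in the sources used here, nor is the number of independent transgenic lines.

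A chloroplast keeps a small circular genome of its own, inherited from a bacterial ancestor, which encodes the core of the photosynthetic complexes and part of the machinery that expresses them. Its genes sit in clusters that are read as long transcripts and then cut, spliced and edited. They are transcribed by a bacterial-type polymerase, whose core is encoded in the chloroplast and whose sigma factors are encoded in the nucleus, and by phage-type polymerases encoded in the nucleus. Mature chloroplast messages generally lack the long poly(A) tails of nuclear messages. How RNA was selected before sequencing is not given in the sources used here, beyond the series' description of the material as mRNA.

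With 1 library per genotype there is no replicate check, no test and no p-value, and every difference below is one between these libraries. The PBL19 C3A library held 12001808 estimated counts and the WT library 11937705. PBL19 itself was at 465.54 FPKM in the C3A library and 6.68 FPKM in the WT library, 69.7-fold higher in C3A (95% counting interval 59.7 to 81.9). FPKM is a count of fragments scaled to the length of the gene and the size of the library, so it is a level per length. The leaf markers RBCS1A, RCA, CAB1 and CA1 were abundant in both libraries, from 755 to 15592 FPKM in C3A and from 1827 to 23517 FPKM in WT. All 4 were lower in C3A. The root markers EIR1 (PIN2), IRT1, EXPA7 and SHV2 (COBL9) were at 1.57 to 6.42 FPKM in C3A and 4.07 to 18.82 FPKM in WT. These root markers were all lower in C3A as well, by 2.59- to 2.93-fold, against 1.43- to 2.88-fold for the leaf markers. The part of either marker difference in the chloroplast values was not tested, and in whole rosettes fewer cells of a type and less RNA per cell cannot be told apart.

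Chloroplast genes took 0.408% of all counts in the C3A library (95% interval 0.404 to 0.411, 48947 counts) and 0.578% in the WT library (0.574 to 0.582, 69001 counts). Intervals throughout are exact (Clopper-Pearson). They reflect counting error alone, and reads that carry no molecular identifier need not be independent molecules. In the C3A library 86 of the 87 genes were listed and in the WT library 84. No gene of the chloroplast's transfer or ribosomal RNAs is among the 87, whose deposited lengths are all multiples of 3 and thus coding lengths. Mitochondrial genes, 90 in the tables, took 0.00749% of counts in C3A (0.00701 to 0.008) and 0.0059% in WT (0.00547 to 0.00635), so the mitochondrial share was higher in C3A while the chloroplast share was lower.

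A few genes made up most of the chloroplast counts. In all, 5 identifiers held 55.6% of the chloroplast counts in C3A and 57.2% in WT, and 10 held 74.9% and 75.2%. The median gene was at 7.07 FPKM in C3A and 10.2 FPKM in WT. The highest deposited value in both libraries was that of psbM, which encodes a small subunit of photosystem II, at 1430 FPKM in C3A and 1859 FPKM in WT. The gene rpl32, for a protein of the large ribosomal subunit, was at 1160 FPKM in C3A and 913 FPKM in WT, the second of the chloroplast genes in C3A and the fourth in WT. Both have short coding sequences, shown here whole with the start and stop codons in capitals (RefSeq, TAIR10.1, chrC:28707-28811 on the minus strand and chrC:113449-113607 on the plus strand).
psbM: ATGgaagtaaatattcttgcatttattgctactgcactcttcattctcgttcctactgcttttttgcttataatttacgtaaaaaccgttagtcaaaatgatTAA
rpl32: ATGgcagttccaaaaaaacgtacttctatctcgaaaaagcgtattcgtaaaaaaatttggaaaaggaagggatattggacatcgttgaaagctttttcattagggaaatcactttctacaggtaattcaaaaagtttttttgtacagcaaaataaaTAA
Shortness bears on these levels. For genes under 150 bases the deposited FPKM is 1.33 to 1.64 times what the full length gives, against 0.979 to 1.11 times for genes of 300 bases or more. Over its full 105 bases psbM would be at 959 FPKM in C3A and 1245 FPKM in WT. On the same full-length scale atpE would be at 917 FPKM in C3A and 1462 FPKM in WT, so that psbM stays above it in C3A and lies below it in WT.

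The other genes among the highest were atpE and atpB, which encode the epsilon and beta subunits of the ATP synthase. As deposited they lay below rpl32 in C3A and above it in WT. Of the 87 genes atpB had 12219 counts in C3A and 20876 in WT, the most in either library. The messages textbooks describe as abundant in leaf chloroplasts were low in these tables. The gene psbA, for the D1 reaction centre protein of photosystem II, was at 7.91 FPKM from 100 counts in C3A and 16.07 FPKM from 202 counts in WT. For rbcL, the large subunit of the carbon-fixing enzyme Rubisco, the values were 2.52 FPKM in C3A and 3.84 FPKM in WT. RBCS1A, a nuclear gene for the small subunit of the same enzyme, was at 8375 FPKM in C3A and 12729 FPKM in WT. The photosystem I reaction centre genes psaA and psaB were at 1.46 and 0.90 FPKM in C3A, and at 1.66 and 1.62 FPKM in WT.

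**Figure D1:**
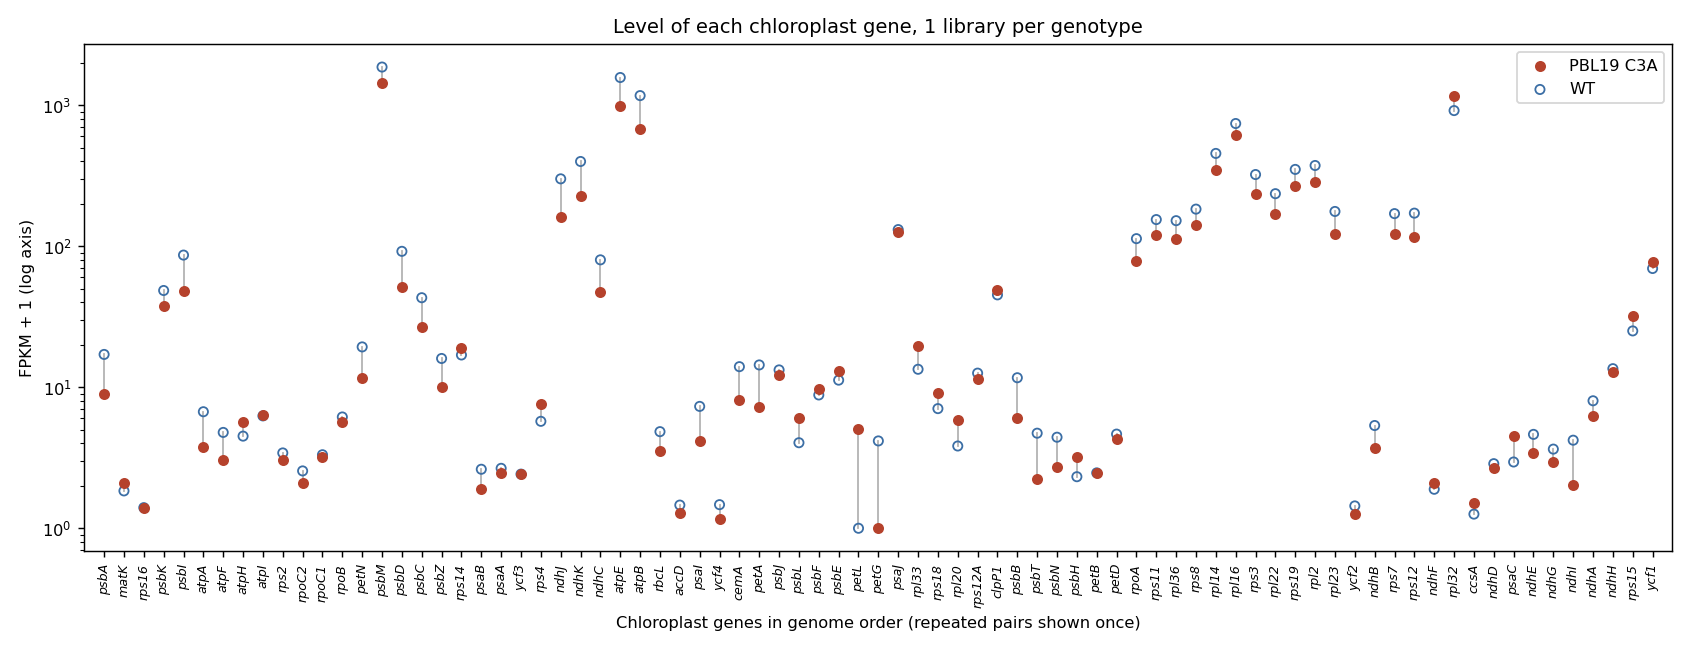
FPKM + 1 on a log axis for each chloroplast gene in genome order, with PBL19 C3A as filled points and WT as open points, joined by a grey line. The highest points are psbM, rpl32, atpE, atpB and the ribosomal protein cluster around rpl16, and most filled points lie below the open ones.

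Sequence before the start codon was searched for promoter boxes. Bacterial-type promoters carry a TTGACA box and a TATANT box (N is any base) upstream of the start of transcription. The 250 bases before each start codon were searched on the gene's own strand for the pair with 15 to 20 bases between the boxes. The first exon of rps12 and its later exons lie apart and each gave a window. The window of the later exons does not lie before a start codon. Of 79 windows 1 held it, or 1.27%, and that was psbA, with 18 bases between the boxes and 85 bases from the second box to the start codon. It is shown because psbA is the classic strong chloroplast promoter, with the boxes in capitals (chrC:1530-1559, minus strand).
psbA promoter: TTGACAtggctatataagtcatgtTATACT
The TTGACA box alone, on either strand, was in 12 of 79 windows (15.2%), and TATANT in 67 (84.8%). Genes whose window held TTGACA had a median of 10 FPKM in C3A and 14.3 FPKM in WT, against 6.22 and 7.81 FPKM for the others. For TATANT the medians were 7.91 FPKM in C3A and 10.2 FPKM in WT with the box, against 4.93 and 7.51 FPKM without it. The stricter TATAAT was in 33 windows (41.8%), with medians of 4.65 FPKM in C3A and 5.7 FPKM in WT with it, against 8.44 and 12 FPKM without it. These matches are descriptions of the letters and not of factor binding.

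Runs of A in the genome were also counted, since they can stand in for a poly(A) tail where RNA is captured by one. The first and later exons of rps12 were again taken apart, so the window after its first exon does not follow a stop codon. A run of at least 12 A within 300 bases after the stop codon was present for 3 of 79 genes (3.8%), psbM, ndhC and psbI, each with 13 A, shown in capitals at chrC:28664-28693 (minus strand), chrC:49950-49979 (minus strand) and chrC:7897-7926 (plus strand).
psbM: ttactatcAAAAAAAAAAAAAgatttcaat
ndhC: acaataatAAAAAAAAAAAAAgtaaaaaaa
psbI: ggttccatAAAAAAAAAAAAAggcttgaaa
The median of these 3 was 46.8 FPKM in C3A and 85.4 FPKM in WT, against 6.38 and 7.41 FPKM for the rest. Other genes among the highest had no such run after the stop codon. Their longest was 9 A for atpE, 4 for atpB, and 8 for rpl32 and for rpl16. A run of that length inside the gene was present in 6 of 79. Their median was 25.6 FPKM in C3A and 23.9 FPKM in WT, against 7.07 and 10.2 FPKM for the rest. In C3A and WT, rpoA was at 77.84 and 111.98 FPKM, ycf1 at 76.77 and 68.41, and clpP1 at 47.98 and 44.13. The others were petD at 3.27 and 3.65 FPKM, rpoC2 at 1.11 and 1.55, and accD at 0.28 and 0.46. Both searches were chosen after the levels had been seen, and the part of such runs in the levels was not tested.

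Most chloroplast genes were lower in the C3A library. Differences are log2 ratios of FPKM + 1, C3A over WT, for genes with at least 1 FPKM in either library, a scale that understates the difference of low genes. Of the 87 genes 79 passed this filter, and 60 of them were below 0 (75.9%), against 38.1% of all 19527 genes tested. Their median was -0.40, while the median of all genes tested was 0.14, so relative to that shift the chloroplast median was -0.54. With each repeated pair counted once the chloroplast median was -0.37 as deposited. Where a direction depends on the scaling, values are also given with the library medians matched (every FPKM ratio divided by the median ratio) or with TMM factors, another estimate of library size. Below the median of all genes were 62 of 79 (78.5%), against 50% of all genes by construction, and with each repeated pair counted once the count was 57 of 74. The counting interval of the plain FPKM ratio lay wholly below 1 for 36 of 77 genes (46.8%), against 20.1% of all genes, and wholly above 1 for 2 (2.6%), against 38.5% of all genes. The counts of 60 and 36 include both copies of each repeated pair.

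The differences were mostly smaller than 2-fold. On the FPKM + 1 scale 3 of 79 were at least 2-fold lower (3.8%), against 2.85% of all genes, and 1 was at least 2-fold higher (1.27%), against 7.89%. These shares of the chloroplast genes rest on few counts. Lower were petG (unlisted in C3A, 3 counts in WT), psbT, a small subunit of photosystem II (1 count in C3A, 2.99 in WT), and ndhI (6 counts in C3A, 19 in WT). The higher gene was petL, with 3 counts in C3A and unlisted in WT. No fold is given for petL or petG, which encode small subunits of the cytochrome b6f complex, since both libraries were at or under 3 counts. For ndhI, a subunit of the NDH complex that carries iron-sulfur clusters, levels were 1.01 FPKM in C3A and 3.21 FPKM in WT, 3.18-fold lower (1.22 to 9.72). By the plain FPKM ratio psbA, psbB, petA and atpA were also over 2-fold lower, at 2.03- to 2.15-fold. They had 51 to 100 counts in C3A and 104 to 202 in WT. Past 2-fold lower by that ratio were also psaI, psbN and ycf4, on 1 to 3 counts in C3A and 3 to 6 in WT. Of these, ycf4 was under the filter of 1 FPKM. No gene with counts in both libraries was 2-fold higher by that ratio.

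**Figure D2:**
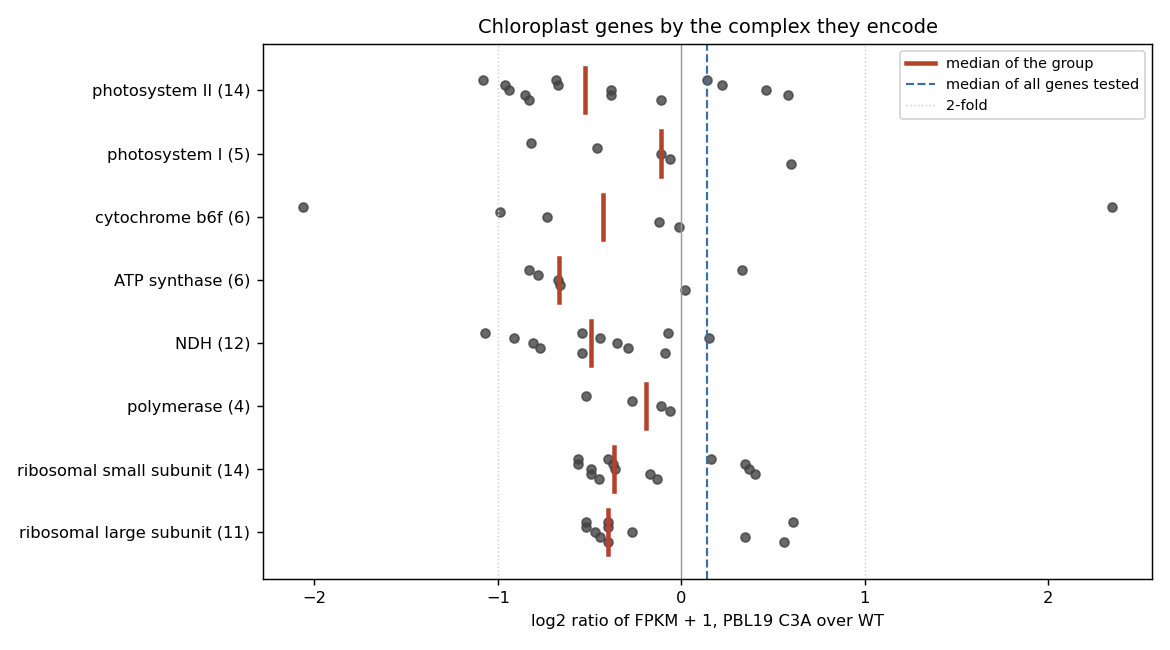
Log2 ratio of FPKM + 1, PBL19 C3A over WT, for each chloroplast gene tested (points), by the complex it encodes, with the number of genes in brackets, the group median as a red bar and the median of all genes tested as a dashed line. All 8 group medians lie below 0 as deposited, from -0.11 for photosystem I to -0.67 for the ATP synthase, and the points past the 2-fold lines rest on few counts.

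Photosystem II genes, which encode the complex that splits water, were below 0 in 10 of 14, with a median of -0.52. The genes psbB, psbC and psbD encode its core antenna proteins and the D2 reaction centre protein. For psbB the level was 5.01 FPKM in C3A and 10.67 FPKM in WT, 2.13-fold lower (1.65 to 2.76). The gene psbA was 2.03-fold lower (1.59 to 2.61), from the values above. For psbD, 50.64 FPKM in C3A and 90.85 FPKM in WT made it 1.79-fold lower (1.63 to 1.98). For psbC, 25.8 FPKM in C3A and 42.08 FPKM in WT made it 1.63-fold lower (1.45 to 1.84). The small subunit gene psbI was at 46.82 FPKM in C3A and 85.4 FPKM in WT, 1.82-fold lower (1.24 to 2.71), and psbM was 1.3-fold lower (1.2 to 1.4). The 4 genes above 0 were psbE, psbF, psbL and psbH, with 5 to 32 counts in C3A and 3 to 27 in WT, and for psbF the log2 ratio of 0.14 was 0.00 under matched medians and under TMM.

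Photosystem I genes, for the complex that reduces ferredoxin, had a median of -0.11, or -0.22 under matched medians and -0.26 under TMM, with 4 of 5 below 0. The gene above 0 was psaC, for the subunit that holds the terminal iron-sulfur clusters, on 9 counts in C3A and 5 in WT. The gene psaB was 1.80-fold lower in C3A (1.07 to 3.10), on 24 counts in C3A and 43 in WT. For psaA the ratio of C3A over WT was 0.880 (0.560 to 1.38), with 40 counts in C3A and 45 in WT. Most counts of this group came from psaJ, a small subunit, at 124 FPKM in C3A and 130 FPKM in WT, a ratio of 0.956 (0.760 to 1.2). The intervals of psaA and psaJ include 1.

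Cytochrome b6f genes, for the complex between the photosystems, had a median of -0.43, with 5 of 6 below 0. That median was -0.12 without genes under 200 bases, -0.21 with counts scaled to library size alone and -0.27 under TMM. The one with the most counts was petA, for cytochrome f, at 6.22 FPKM in C3A and 13.38 FPKM in WT, 2.15-fold lower (1.61 to 2.89). The gene petN, a small subunit, was at 10.61 FPKM in C3A and 18.3 FPKM in WT on 7 and 12 counts, a ratio of 0.580 (0.193 to 1.60). For petB (cytochrome b6) and petD (subunit IV) the ratios were 0.993 (0.390 to 2.53) and 0.896 (0.447 to 1.78), on 11 to 20 counts a library.

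The ATP synthase genes had a median of -0.67, with 4 of 6 below 0. The gene atpB was at 679 FPKM in C3A and 1166 FPKM in WT, 1.72-fold lower (1.68 to 1.76). The gene atpE was at 982 FPKM in C3A and 1567 FPKM in WT, 1.60-fold lower (1.54 to 1.66). For atpA, the alpha subunit, 2.78 FPKM in C3A and 5.70 FPKM in WT made it 2.05-fold lower (1.45 to 2.93). The level of atpA was thus far below that of atpB in both libraries, although alpha and beta subunits alternate in the same catalytic ring. For atpF, a stalk subunit, the ratio was 0.537 (0.251 to 1.1). The remaining genes, atpH and atpI, were above 0 as deposited at 0.33 and 0.02, with intervals that include 1, and atpI was at -0.12 under matched medians and -0.10 under TMM.

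The NDH complex passes electrons from ferredoxin back to plastoquinone in cyclic flow around photosystem I. Its chloroplast genes were below 0 in 11 of 12 identifiers, with a median of -0.49, or -0.44 with the copies of ndhB counted once. The gene ndhK was at 226 FPKM in C3A and 397 FPKM in WT, 1.76-fold lower (1.66 to 1.86). The gene ndhJ was at 159 FPKM in C3A and 299 FPKM in WT, 1.88-fold lower (1.73 to 2.05). For ndhC, 45.96 FPKM in C3A and 78.94 FPKM in WT made it 1.72-fold lower (1.43 to 2.07). Together with ndhI these were the genes of the group farthest from 0. The other 8 identifiers were at 1.1 to 11.9 FPKM in C3A and 0.89 to 12.53 FPKM in WT. Only ndhF was above 0, at 0.15, on 30 counts in C3A and 24 in WT. It lies at chrC:110398-112638 and overlaps a stretch annotated as ycf1 on the opposite strand. That stretch is not the ycf1 gene whose level is given below, which lies apart from ndhF at chrC:123884-129244.

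The polymerase core genes were all below 0, 4 of 4, with a median of -0.19, or -0.30 under matched medians and -0.41 under TMM. The gene rpoA, for the alpha subunit, was at 77.84 FPKM in C3A and 111.98 FPKM in WT, 1.44-fold lower (1.32 to 1.57). The catalytic beta subunits were far lower in level. The gene rpoB was at 4.69 FPKM in C3A and 5.15 FPKM in WT, a ratio of 0.911 (0.742 to 1.12). For rpoC1 the values were 2.18 and 2.32 FPKM, a ratio of 0.940 (0.635 to 1.39), and for rpoC2 1.11 and 1.55 FPKM, a ratio of 0.716 (0.499 to 1.02). The intervals of rpoB, rpoC1 and rpoC2 include 1.

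Ribosomal protein genes of the chloroplast were below 0 in 18 of 25 identifiers, with medians of -0.37 for the small subunit and -0.40 for the large. These values count both copies of each repeated pair. With each pair counted once the medians were -0.27 for the small subunit and -0.40 for the large. Many lay close together. The gene rpl23 was at 121 FPKM in C3A and 175 FPKM in WT, 1.44-fold lower (1.26 to 1.65). For rps12, 115 FPKM in C3A and 170 FPKM in WT at each copy of its later exons made those exons 1.48-fold lower (1.28 to 1.71). The first exon of rps12, an entry of its own, was at 10.47 FPKM in C3A and 11.58 FPKM in WT. Its ratio was 0.904 (0.344 to 2.35), on 10 counts in C3A and 11 in WT. For rps7, 120 FPKM in C3A and 169 FPKM in WT made it 1.41-fold lower (1.27 to 1.56). Against these stood rpl32, 1.27-fold higher in C3A (1.18 to 1.36), at 0.35 on the log2 scale, or 0.18 under matched medians. The genes rpl33 and rpl20 were above 0 as well, at 0.56 and 0.61, but with ratios of 1.51 (0.889 to 2.61) and 1.71 (0.775 to 3.99) on 11 to 38 counts a library. In the small subunit rps4, rps18, rps15 and rps14 were above 0 at 0.40, 0.37, 0.35 and 0.16, each with an interval of its ratio that includes 1. In the inverted repeat, the stretch of the genome present in a pair of copies, 6 named gene pairs, and the unnamed pair ATCG00870 and ATCG01270, had identical values in the tables, so that their reads are not told apart and each pair is a single measurement.

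Of the genes outside these complexes, ycf1, which encodes a protein proposed to act in import at the inner envelope, held 5039 counts in C3A and 4466 in WT. Its level was 76.77 FPKM in C3A and 68.41 FPKM in WT, a ratio of 1.12 (1.08 to 1.17), and its difference of 0.16 on the log2 scale was 0.00 under matched medians. The protease subunit gene clpP1 was at 47.98 FPKM in C3A and 44.13 FPKM in WT, a ratio of 1.09 (0.927 to 1.28), and its difference of 0.12 on the log2 scale was -0.04 under matched medians. The envelope protein gene cemA was at 7.07 FPKM in C3A and 12.98 FPKM in WT, 1.84-fold lower (1.32 to 2.58). The gene rbcL was 1.52-fold lower (1.01 to 2.26), and for the intron maturase gene matK the ratio was 1.31 (0.651 to 2.68) on 21 counts in C3A and 16 in WT.

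The make-up of the chloroplast counts, which does not depend on how the libraries are scaled against each other, differed as well. The shares add up to a whole, so a lower share of any group raises the shares of the others. A share that is higher in C3A is thus not by itself a higher level, and the part of this in each share was not tested. The ATP synthase genes held 34.2% of chloroplast counts in C3A (33.8 to 34.6) and 40.6% in WT (40.2 to 41). Nearly all of it was atpB and atpE, with 33.9% in C3A and 40.3% in WT. NDH genes held 6.60% in C3A (6.38 to 6.83) and 8.04% in WT (7.83 to 8.24). Most of it was ndhC, ndhK and ndhJ, with 2834 of 3232 NDH counts in C3A and 5053 of 5545 in WT. The NDH share therefore describes mainly these neighbouring genes. Photosystem II genes held 5.46% in C3A (5.26 to 5.66) and 5.89% in WT (5.72 to 6.07). Ribosomal protein genes of both subunits held 39.2% in C3A (38.8 to 39.7) and 35.1% in WT (34.7 to 35.5). The share of the polymerase genes was 2.47% in C3A (2.33 to 2.61) and 2.38% in WT (2.27 to 2.5), with intervals that overlap. Genes of photosystem I held 0.464% in C3A (0.406 to 0.528) and 0.371% in WT (0.327 to 0.419), again with intervals that overlap.

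**Figure D3:**
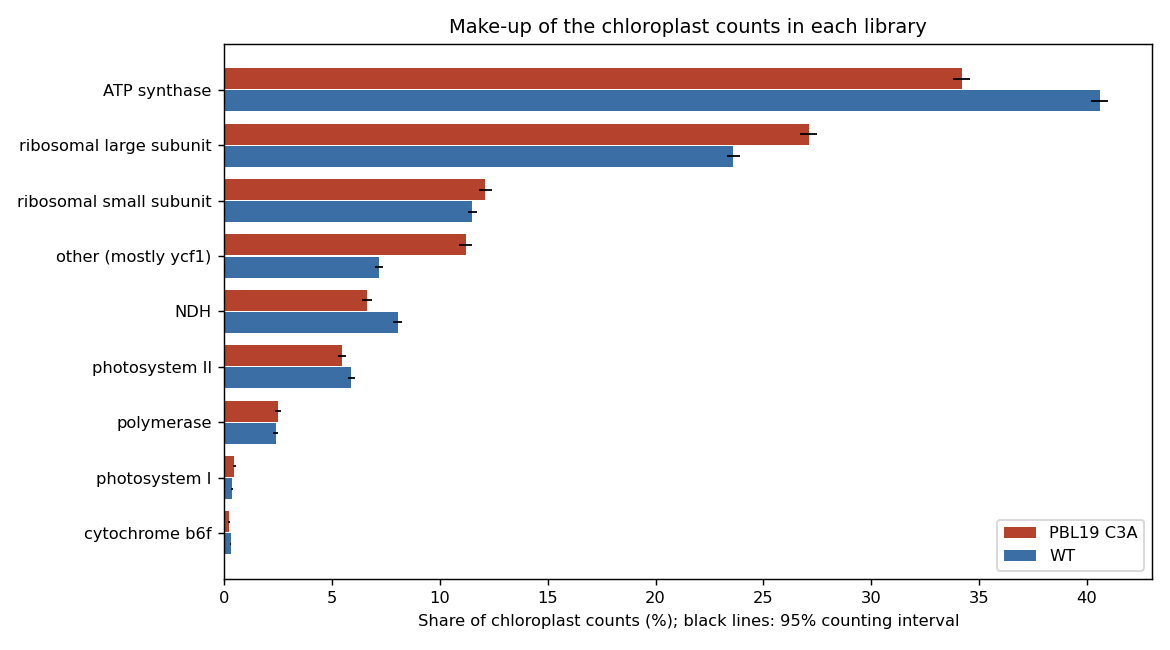
Share of the chloroplast counts held by each group of genes, in percent, with PBL19 C3A above WT and 95% counting intervals as black lines. The ATP synthase bar is shorter in C3A (34.2%, against 40.6% in WT) and the bars of both ribosomal groups and of the other genes, mostly ycf1, are longer in C3A.

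Neighbouring genes differed to a like extent in several clusters. Genes on the same strand with at most 500 bases between them were joined into runs, a rule chosen after the values had been seen. This gave 16 runs holding 63 of 79 distinct entries, with the first and later exons of rps12 as separate entries. In 7 runs every tested gene was below 0, in 9 the genes lay on both sides, and in 0 runs was every gene above 0. Genes in a run can share transcripts and, where they overlap, reads. The coding sequence of atpE begins inside that of atpB, with 4 bases in common, shown in capitals with 18 bases on each side (chrC:52642-52681, minus strand). The overlap of psbD and psbC is 53 bases (chrC:33702-33790, plus strand) and that of rpl22 and rps3 is 16 bases (chrC:83449-83500, minus strand).
atpB and atpE: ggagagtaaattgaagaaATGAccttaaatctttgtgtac
psbD and psbC: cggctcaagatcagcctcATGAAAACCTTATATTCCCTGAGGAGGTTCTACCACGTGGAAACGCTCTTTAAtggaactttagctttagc
rpl22 and rps3: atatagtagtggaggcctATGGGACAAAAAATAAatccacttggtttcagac
Fractional counts at psbD and psbC, 640.31 and 440.69 in C3A and 1142.20 and 714.80 in WT, show reads divided between genes. Their separate values are therefore less certain than their sum.

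Summed over a run, counts scaled to library size were lower in C3A in several of the runs led by photosynthesis genes and not in others. The ratio of C3A over WT was 0.593 (0.582 to 0.605) for atpB and atpE, 0.579 (0.537 to 0.624) for psbD and psbC, and 0.558 (0.533 to 0.584) for ndhC, ndhK and ndhJ. It was 0.495 (0.399 to 0.613) for the run of psaI, ycf4, cemA and petA, and 0.545 (0.435 to 0.679) for the run from psbB to petD. Most counts of the latter run came from psbB, 92 of 127 in C3A and 195 of 232 in WT. The median log2 ratio of the genes in that run was -0.12, so its sum describes mainly psbB. The run of 11 genes from rpl23 to rpoA, which holds 10 ribosomal protein genes and rpoA, was at 0.760 (0.742 to 0.777), with log2 ratios from -0.52 to -0.27. The run of rps12, rps7 and ndhB was at 0.696 (0.641 to 0.756). The run from rpoB to atpI was at 0.886 (0.766 to 1.02) and that of psbE, psbF, psbL and psbJ at 1.13 (0.763 to 1.68), both with intervals that include 1. The same holds for the run of psaA, psaB and rps14, at 0.874 (0.680 to 1.12), and for that of psaJ, rpl33 and rps18, at 1.06 (0.874 to 1.29). The petL and petG run had 3 counts in each library. Another 6 NDH genes lie in a run that starts with ycf1, whose counts make up most of its sum, and that run was at 1.11 (1.06 to 1.15).

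**Figure D4:**
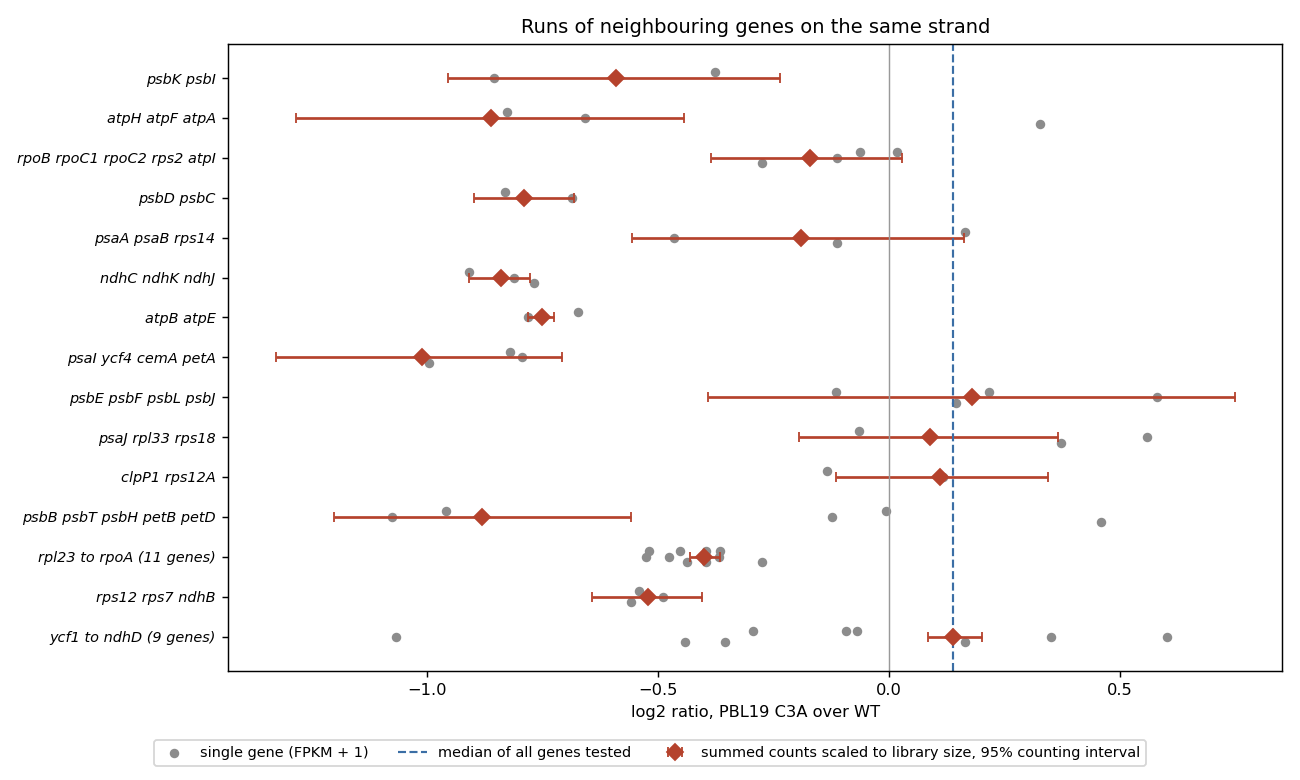
Log2 ratio, PBL19 C3A over WT, in runs of neighbouring genes on the same strand, with single genes as grey points (FPKM + 1) and the ratio of summed, library-scaled counts as diamonds with 95% counting intervals. The runs atpB atpE, psbD psbC and ndhC ndhK ndhJ lie near -0.8, and the run of ribosomal protein genes and rpoA lies at -0.40 with its 11 points close together.

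Nuclear genes whose products serve the chloroplast genome were set beside these values. All 17 nuclear genes for NDH subunits were below 0, with a median of -1.03, and 9 of 17 were at least 2-fold lower, against 38.1% and 2.85% of all genes tested. NdhT, a J-domain subunit, was at 3.91 FPKM in C3A and 12.99 FPKM in WT, 3.32-fold lower (2.48 to 4.51). NdhU, another J-domain subunit, was at 29.73 FPKM in C3A and 83.28 FPKM in WT, 2.80-fold lower (2.48 to 3.17). PnsL3, a lumenal subunit, was at 18.75 FPKM in C3A and 49.21 FPKM in WT, 2.62-fold lower (2.24 to 3.08). The nuclear median for NDH, -1.03, lay further below 0 than the chloroplast one, -0.49, a difference that was not tested.

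Sigma factors, which direct the bacterial-type polymerase to its promoters, were below 0 in 6 of 6, against 38.1% of all genes, with a median of -0.50. SIG4 was at 21.69 FPKM in C3A and 45.29 FPKM in WT, 2.09-fold lower (1.84 to 2.37). SIGE (SIG5) was at 5.80 FPKM in C3A and 9.13 FPKM in WT, 1.57-fold lower (1.27 to 1.95). SIGC (SIG3) was 1.45-fold lower (1.3 to 1.63) and SIG2 1.40-fold lower (1.28 to 1.53). SIGA (SIG1) and SIGF (SIG6) were each 1.24-fold lower, with intervals of 1.13 to 1.36 and 1.14 to 1.35. The proteins bound to that polymerase lay the other way, with 11 of 12 above 0 and a median of 0.46 as deposited, and 10 of 12 above 0 with a median of 0.30 under matched medians. FSD3, an iron superoxide dismutase, was at 39.35 FPKM in C3A and 17.33 FPKM in WT, a ratio of 2.27 (1.96 to 2.64). FLN1, a fructokinase-like protein, was at 22.24 FPKM in C3A and 10.12 FPKM in WT, a ratio of 2.2 (1.86 to 2.6), and PDE312 (PTAC10) was at 22.38 and 10.74 FPKM, a ratio of 2.08 (1.82 to 2.39). On the log2 scale 2 of 12 were at least 2-fold higher as deposited, against 7.89% of all genes, and 0 under matched medians or TMM.

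The 3 phage-type polymerase genes had a median of 0.12 as deposited and of -0.02 under matched medians, so no direction holds for that median. SCA3 (RPOTp), which encodes a polymerase of plastids, was at 11.42 FPKM in C3A and 8.63 FPKM in WT, a ratio of 1.32 (1.16 to 1.52). Relative to the median of all genes its log2 ratio was 0.22. MGP3 (RPOTm), a mitochondrial one, was at 6.05 FPKM in C3A and 5.50 FPKM in WT, and AT5G15700 (RPOTmp) at 2.93 and 2.81 FPKM. Of 20 genes for the processing and stability of chloroplast RNA 13 were below 0, with a median of -0.24, and 3 were at least 2-fold lower, against 38.1% and 2.85% of all genes. Under matched medians 18 of 20 were below 0, with a median of -0.40. The 3 lower genes were CSP41A, an RNA-binding endonuclease, at 173.96 FPKM in C3A and 387.21 FPKM in WT, 2.23-fold lower (2.13 to 2.32), its relative CRB (CSP41B) at 163.91 and 362.08 FPKM, 2.21-fold lower (2.12 to 2.3), and HCF244 at 23.02 and 49.58 FPKM, 2.15-fold lower (1.93 to 2.41). HCF244 is needed for the translation of psbA. Highest in ratio was SVR7, a pentatricopeptide repeat protein, at 25.57 FPKM in C3A and 14.1 FPKM in WT, a ratio of 1.81 (1.61 to 2.05).

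Nuclear genes for plastid ribosomal proteins stayed closer to 0 than the chloroplast ones. The 9 of the small subunit ranged from -0.11 to 0.15 with a median of 0.04, and the 24 of the large subunit from -0.26 to 0.24 with a median of 0.01, as deposited. Under matched medians these values were -0.13 and -0.16. The gene EMB3136, for protein L10, was at 253 FPKM in C3A and 303 FPKM in WT, a ratio of 0.837 (0.794 to 0.884). EMB3126, for L1, was at 310 FPKM in C3A and 357 FPKM in WT, and EMB3105, for L18, at 211 FPKM in C3A and 178 FPKM in WT. For the small subunit EMB3113 was at 292 FPKM in C3A and 264 FPKM in WT, and GHS1 at 212 FPKM in C3A and 191 FPKM in WT. Both were above 0 as deposited. Under matched medians, where the median of all genes is 0.00, all 9 small subunit genes were below 0.

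**Figure D5:**
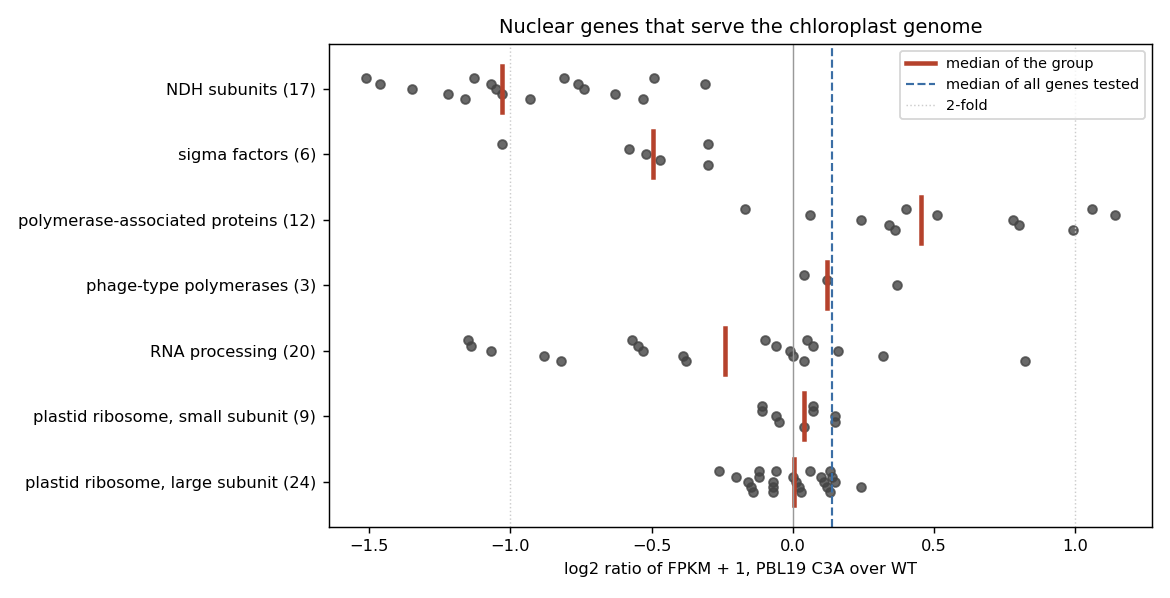
Log2 ratio of FPKM + 1, PBL19 C3A over WT, for nuclear genes that serve the chloroplast genome, with the list median as a red bar, the median of all genes tested as a dashed line and the number of genes in brackets. NDH subunits (median -1.03) and sigma factors (-0.50) lie below 0, polymerase-associated proteins mostly above (0.46), and the phage-type polymerase and ribosomal medians, near 0 as deposited, change sign under matched medians.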

How the data were processed

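RNA sequencing libraries from rosettes, 1 per genotype, were read from both ends with BGI sequencing, as the labels' protocols state. Reads were handled with Trimmomatic 0.36 and HISAT on the TAIR10 genome, per the submitters' processing notes. The HISAT version, the quantification tool, the use of strand and the selection of RNA are not given in the sources used here. For every gene the tables hold an expected count (an estimated count of fragments, which need not be whole), per the file headers, and the authors deposited it unscaled. They also hold a length and an FPKM, which the authors deposited already scaled to length and library size. Only genes above 0 are listed, and an unlisted gene was set to 0.

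The members and lists were chosen with earlier results of these data known. RefSeq (TAIR10.1) does not carry the ATCG identifiers, so gene names come from a list written by hand and checked by coding length. The length matched that of the named RefSeq gene alone for 64 of 87, and a length shared with another gene for 13. ATCG00870 and ATCG01270 were not in RefSeq and stay unnamed. The lengths deposited for matK, ndhD, ndhB, ycf3 and rps12 cover other frames or exons than RefSeq's.

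Log2 ratios used FPKM + 1 and genes of at least 1 FPKM in either library, and a 2-fold threshold was descriptive. Single-gene ratios of FPKM carry exact conditional (Clopper-Pearson) 95% intervals of the rounded counts. At least 10 counts in either library were reached by 71 of 87 members, 17 had fractional counts and 8 overlap another gene. Named in full were psbA, rbcL, psaA, psaB, psbB, psbC, psbD and the rpo genes, every member past 2-fold, up to 4 members per group by size of log2 ratio among those with at least 10 counts, up to 3 per nuclear list and all sigma factors. Some abundant genes, members above 0 and SVR7 were named after their values were seen. Alternatives were a rescaling to a median ratio of 1, TMM factors from edgeR 4.0.16 in R 4.3.3, counts scaled to library size alone (CPM), other pseudocounts and filters, and sets of genes left out. Calculations used python 3.11.15, pandas 2.3.3, numpy 2.4.6 and scipy 1.17.1, and the steps were tested on simulated data.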

Additional observations from a re-analysis of the deposited data

How the results depend on the processing

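The chloroplast median stayed below 0 under each alternative run, at -0.54 with library medians matched. Matched medians put the ribosomal medians at -0.53 (small subunit) and -0.56 (large), and TMM-scaled counts put them at -0.51 and -0.55. The count of chloroplast genes at least 2-fold lower, 3 as deposited, was 8 with medians matched (psbA, psbB, psbI, petA, ndhJ, petG, psbT and ndhI), 5 with TMM-scaled counts, 1 with CPM, 7 with a pseudocount of 0.1 FPKM, 0 among genes of at least 5 FPKM and 1 without genes under 200 bases. The count at least 2-fold higher, 1 as deposited, was 0 with TMM-scaled counts, with CPM, among genes of at least 5 FPKM and without genes under 200 bases. These counts thus depend on the setting, and so does the background. Of all genes tested, 557 of 19527 were at least 2-fold lower as deposited, 773 with medians matched, 856 with TMM, 604 with CPM and 911 with the lower pseudocount, and 431 of 14635 at 5 FPKM or more and 543 of 19451 without short genes. At least 2-fold higher were 1541 as deposited, 1274 with TMM, 1579 with CPM, 1196 at 5 FPKM or more and 1526 without short genes. The chloroplast share was 0.516% in C3A and 0.804% in WT without the 100 most abundant nuclear genes, and 0.270% in C3A and 0.346% in WT without atpB and atpE. The photosystem II share in WT was 5.62% without psbA and rbcL. With medians matched and with TMM-scaled counts, the medians were -0.02 and -0.03 for phage-type polymerases, -1.19 and -1.18 for nuclear NDH genes, and -0.13 and -0.12 (small) and -0.16 and -0.15 (large) for nuclear ribosomal genes. The settings without short genes, without atpB and atpE and with repeated pairs counted once, and the scalings of nuclear lists, were chosen after seeing the data. No paired analysis was possible because each genotype has 1 library. Variation between plants is not measured, 16 of the 87 genes had under 10 counts in both libraries, and counts from a pair of repeat copies, from overlapping genes and from either strand cannot be assigned with certainty.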
